A study of Caenorhabditis elegans with 2 samples.

Results

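Chromosome X is the sex chromosome of Caenorhabditis elegans, and the regions described here are candidate UNC-39 regions on it in embryos. They come from chromatin immunoprecipitation followed by sequencing (ChIP-seq), and not all of them need be bound by UNC-39. They are all X regions of the relaxed list that the authors made from both replicates pooled (build ce11), without those with a summit 200 bp or less from a gene for a tRNA, snoRNA or snRNA. The list held 9046 regions, of which 1746 lay on X. The exclusion removed 91 of these, which left 1655 X regions. The same rule left 7107 autosomal regions. The nearest X region that was kept had its summit 237 bp from a small RNA gene and a signal of 33.5, and the farthest that was left out had its summit at 175 bp and a signal of 22.1. All samples belonged to 1 group of mixed-stage embryos of mixed sex from strain OP186, which carries the integrated transgene wgIs186 with eGFP-tagged unc-39 in an unc-119(ed3) III background. There were 2 biological replicates, each of whole pooled animals, so any bound cell type is averaged over the embryo. The sample description names the eGFP tag as the target of the precipitation while the antibody field gives unc-39. The control listed for the experiment was not analysed here.

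UNC-39 belongs to the Six4 and Six5 branch of homeodomain proteins. It is known to act in mesodermal cells, in migrating cells and neurons, and in setting the fate of the AIA interneurons. Hermaphrodite worms carry a pair of X chromosomes and males a single one. In hermaphrodites the dosage compensation complex, a condensin-like machine, loads onto X at recruitment elements and spreads from there, which lowers X transcription. Recruitment elements are known to share a motif named MEX, and the letters GCGCAGGG form its core.

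The relaxed lists were made to include background, and a second list holds the regions kept by the authors' cut-off on the irreproducible discovery rate (IDR). The signal is the score of the authors' peak caller for each region, and it ranks regions within a list only. All 267 IDR regions were also the 267 strongest regions of the pooled list by signal, so IDR membership and rank by signal are the same measurement here. The lowest IDR signal was 44.4 and the highest signal outside the IDR list was 44.3. Among the X regions kept, 48 are IDR regions and 1607 are not. The exclusion near small RNA genes had removed 21 of 69 X IDR regions, against 5.21% of all X regions. Over all chromosomes it left 200 of the 267 IDR regions. Depth is unknown, because read counts are not part of the lists. Both libraries are of 1 group, so no test between groups was made. X is set beside the autosomes with 95% Clopper-Pearson intervals (these cover counting error only), and each direction was read in both replicate lists. With 2 replicates the smallest exact two-sided p of a sign test would be 0.5.

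The MEX core stood at a group of the strongest X regions and at none of the autosomal IDR regions. GCGCAGGG, counted on either strand up to 100 bp from the summit, lay at 8 of 48 X IDR regions (16.7%, interval 7.48 to 30.2). It lay at 0 of 152 autosomal IDR regions, which allows a share of up to 2.40%. The windows of 6 X IDR regions are printed 5′ to 3′ on the plus strand of WBcel235, 201 bases centred on the summit, since the finding rests on them. Capitals mark GCGCAGGG and the related GCGAAGGG on either strand. An interval is named by the genes with the nearest and next nearest starts, which need not flank it. The first 5 hold the core, and the last is the strongest X region, which holds only GCGAAGGG.
mom-1 intron, chrX:6296468-6296668: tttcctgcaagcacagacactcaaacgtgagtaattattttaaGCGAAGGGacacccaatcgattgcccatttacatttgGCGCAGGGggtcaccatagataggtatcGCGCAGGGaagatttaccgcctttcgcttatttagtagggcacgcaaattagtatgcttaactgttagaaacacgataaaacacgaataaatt
W02H3.3 and W04G3.11 interval, chrX:11094107-11094307: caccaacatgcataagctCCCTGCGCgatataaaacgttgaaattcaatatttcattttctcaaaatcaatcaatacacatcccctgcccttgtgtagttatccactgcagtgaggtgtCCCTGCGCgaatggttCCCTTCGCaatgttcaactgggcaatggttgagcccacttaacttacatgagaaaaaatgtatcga
gtr-1 and F25E2.2 interval, chrX:806581-806781: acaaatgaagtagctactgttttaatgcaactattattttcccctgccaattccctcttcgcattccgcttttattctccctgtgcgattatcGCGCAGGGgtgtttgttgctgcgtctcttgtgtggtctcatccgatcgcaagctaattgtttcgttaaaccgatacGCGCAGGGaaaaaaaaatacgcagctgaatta
F20B6.9 and hpk-1 interval, chrX:4209176-4209376: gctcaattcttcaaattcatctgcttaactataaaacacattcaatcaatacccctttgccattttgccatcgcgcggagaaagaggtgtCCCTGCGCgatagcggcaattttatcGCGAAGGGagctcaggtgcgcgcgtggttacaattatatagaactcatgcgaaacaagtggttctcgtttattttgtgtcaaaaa
nspc-17 promoter, chrX:14525803-14526003: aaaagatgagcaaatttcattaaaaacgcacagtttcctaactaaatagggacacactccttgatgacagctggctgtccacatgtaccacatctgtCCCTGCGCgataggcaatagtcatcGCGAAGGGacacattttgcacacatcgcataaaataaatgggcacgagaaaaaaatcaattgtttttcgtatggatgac
K02D3.1 and K02D3.2 interval, chrX:13700777-13700977: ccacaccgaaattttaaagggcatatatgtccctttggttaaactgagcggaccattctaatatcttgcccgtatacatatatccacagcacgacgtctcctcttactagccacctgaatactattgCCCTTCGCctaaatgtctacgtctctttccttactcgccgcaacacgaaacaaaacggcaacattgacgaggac

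Of the windows shown, the mom-1 intron and the W02H3.3 interval each held the core at 2 positions and GCGAAGGG once. The gtr-1 interval held the core at 2 positions. The F20B6.9 interval and the nspc-17 promoter each held the core once and GCGAAGGG once. GCGAAGGG was chosen after 8-mers at the summits had been listed, so its counts are a description only. The core was chosen with earlier results of these data known, so its counts and intervals are a description too. GCGAAGGG lay at 7 X IDR summits and at 0 autosomal ones, and 6 of those 7 also held the core. Together 9 of the 48 X IDR regions held either sequence.

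The other 8-mers that leaned most to X were pieces of the same motif. Of the distinct 8-mers in the windows of the 200 IDR regions, the 8 with the largest excess of X share over autosomal share are described, and they were picked by that difference. They include CGCAGGGA at 9 X regions, and TCGCGCAG, CGCGCAGG and ATCGCGCA at 7 X regions each, all at 0 autosomal regions. TATCGCGC lay at 6 X regions and at 0 autosomal ones. These run into each other as a stretch that starts before the core and ends past it. The exception was AAAACACA, at 6 X regions and 1 autosomal region.

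All 11 core occurrences in X IDR regions are printed along the core's own strand, with 4 bases to each side and the core in capitals, because the bases around it were shared.
gtr-1 interval, plus strand, chrX:806670-806685: tatcGCGCAGGGgtgt
gtr-1 interval, plus strand, chrX:806746-806761: atacGCGCAGGGaaaa
Y41G9A.17 intron, minus strand, chrX:2997119-2997134: tatcGCGCAGGGagga
F20B6.9 interval, minus strand, chrX:4209262-4209277: tatcGCGCAGGGacac
pks-1 exon, plus strand, chrX:5429586-5429601: tttaGCGCAGGGagga
mom-1 intron, plus strand, chrX:6296544-6296559: tttgGCGCAGGGggtc
mom-1 intron, plus strand, chrX:6296572-6296587: tatcGCGCAGGGaaga
W02H3.3 interval, minus strand, chrX:11094121-11094136: tatcGCGCAGGGagct
W02H3.3 interval, minus strand, chrX:11094222-11094237: attcGCGCAGGGacac
nspc-17 promoter, minus strand, chrX:14525896-14525911: tatcGCGCAGGGacag
F22H10.2 interval, minus strand, chrX:16682168-16682183: catcGCGCAGGGaaca

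The letters tatc stood before 6 of these 11 occurrences. They stood before 2 of the 12 occurrences in other X regions and before 1 of the 58 occurrences elsewhere on X, outside the regions kept. That 1 site (chrX:2997294-2997309) lay just past the end of the Y41G9A.17 IDR region (chrX:2996882-2997257). It had the same bases as the site printed for that region. The base a followed the core in 9 of 11 occurrences in X IDR regions, in 6 of 12 in other X regions and in 19 of 58 elsewhere. The core occurred 81 times on X in all, and 23 of these occurrences (28.4%) lay inside a relaxed region that was kept after the exclusion. On the autosomes that share ran from 1.56% on V to 9.68% on I. X also had more occurrences for its length, with 4.57 per Mb on X against 2.06 per Mb on I to 3.34 per Mb on III. Among non-overlapping windows of 201 bp, 0.0851% on X and 0.0553% on the autosomes held the core. A match of letters is a description and does not show which protein was bound there.

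Both replicates gave this pattern. Of the regions in each replicate list that ranked among its 267 strongest, with the same exclusion, 9 of 53 on X and 1 of 161 on the autosomes held the core in replicate 1. In replicate 2 the counts were 9 of 55 on X and 0 of 157 on the autosomes. Below those ranks the core was rare. In replicate 1 it lay at 7 of 2862 X regions and 12 of 12489 autosomal regions, and in replicate 2 at 15 of 5402 X regions and 16 of 23963 autosomal regions.

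Within X the core followed the order of signal. Among the 48 X regions just below the IDR list (signal 36.9 to 43.96) 2 held it. Among the next 96 (signal 31.2 to 36.9) 2 held it, and among the remaining 1463 (signal 18.3 to 31.1) 6 held it (0.410%, interval 0.151 to 0.890). Over all members the share was 1.09% on X (18 of 1655, interval 0.646 to 1.71) and 0.0985% on the autosomes (7 of 7107, interval 0.0396 to 0.203). The 10 X regions with the core outside the IDR list include one near xol-1, the master switch that sets both sex and dosage compensation. It lay 4905 bp upstream of xol-1, held the core at 2 positions 34 bp apart and had a pooled signal of 31.2, with 23.2 in replicate 1 and 12.4 in replicate 2. A region 1924 bp upstream of a kin-20 start, in an intron, had 39.3 in the pooled list, 31.2 in replicate 1 and 15.5 in replicate 2. The region 645 bp upstream of ins-39, an insulin-like peptide gene, had 29.5 in the pooled list. The 3 regions were picked after their values were seen.

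**Figure D1:**
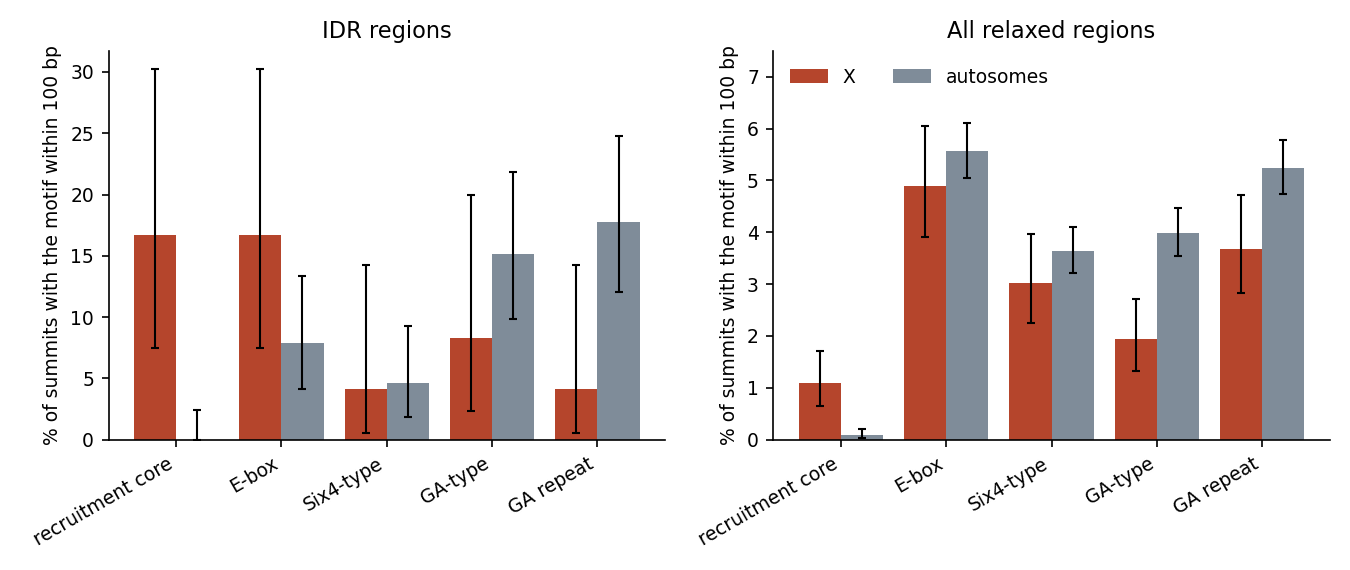
Share of summits with a motif within 100 bp, X in red and the 5 autosomes together in grey, for IDR regions (left) and all relaxed regions (right). The bars on top are 95% Clopper-Pearson intervals. The recruitment core is GCGCAGGG, the E-box CAGCTG, the Six4-type heptamer TGACACC, the GA-type 8-mer GAGACGCA and the GA repeat GAGAGAGA. The core stands at 16.7% of X IDR regions against 0% of autosomal ones, while the GA repeat stands at 4.17% of X IDR regions against 17.8% of autosomal ones.

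Of the other motifs searched, the GA sequences were less frequent on X, and the E-box depended on the window. GAGAGAGA, a GA repeat, lay at 2 of 48 X IDR regions (4.17%, interval 0.509 to 14.3) and at 27 of 152 autosomal ones (17.8%, interval 12.04 to 24.8). Over all members it lay at 3.69% of X summits (interval 2.83 to 4.71) and 5.23% of autosomal summits (interval 4.73 to 5.78). GAGACGCA lay at 4 of 48 X IDR regions (8.33%, interval 2.32 to 19.98) and at 23 of 152 autosomal ones (15.1%, interval 9.84 to 21.8). Over all members it lay at 1.93% of X summits (interval 1.33 to 2.72) and 3.98% of autosomal summits (interval 3.54 to 4.46). Both sequences were also rarer on X as a whole. GAGAGAGA was in 1.12% of X windows of 201 bp and 1.36% of autosomal windows, and GAGACGCA was in 0.568% of X windows and 1.07% of autosomal windows. The E-box CAGCTG lay at 8 of 48 X IDR regions and 12 of 152 autosomal ones, with overlapping intervals (7.48 to 30.2% on X and 4.15 to 13.4% on the autosomes). Within 50 bp it lay at 5 of 48 X IDR regions (10.4%, interval 3.47 to 22.7) and 2 of 152 autosomal ones (1.32%, interval 0.160 to 4.67). Over all members within 50 bp it lay at 2.90% of X summits and 2.77% of autosomal summits. CAGCTG was in 3.60% of X windows of 201 bp and 3.92% of autosomal windows. TGACACC, a sequence known for Six4-type proteins, lay at 2 of 48 X IDR regions and 7 of 152 autosomal ones. Over all members TGACACC lay at 3.02% of X summits and 3.63% of autosomal summits. It was in 1.80% of X windows of 201 bp and 1.96% of autosomal windows. GGGTTCGA, known from the B box inside tRNA genes, lay at 0 of 48 X IDR regions, which allows up to 7.40%, and at 0 of 152 autosomal ones.

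X held slightly more relaxed regions than its length would give, within the range of the autosomes, and more IDR regions per Mb than 4 of the 5 autosomes. It held 18.9% of relaxed regions (interval 18.1 to 19.7) on 17.7% of the length of the 6 chromosomes. The density was 93.4 regions per Mb on X against 74.6 per Mb on IV to 96.9 per Mb on III. The replicate lists placed 18.7% (replicate 1) and 18.5% (replicate 2) of their regions on X. Of the IDR regions, 48 of 200 (24%, interval 18.3 to 30.5) lay on X. That is 2.71 IDR regions per Mb on X, against 2.76 per Mb on III, 2.19 per Mb on I, 1.70 per Mb on II, 1.48 per Mb on V and 1.37 per Mb on IV. With intervals scaled to regions per Mb, that of X overlapped those of I, II and III. Without the IDR regions that held GCGCAGGG or GCGAAGGG the X share was 20.4% (interval 14.9 to 26.8), which includes the 17.7% of length. That setting was chosen after seeing the data and removes X regions only.

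**Figure D2:**
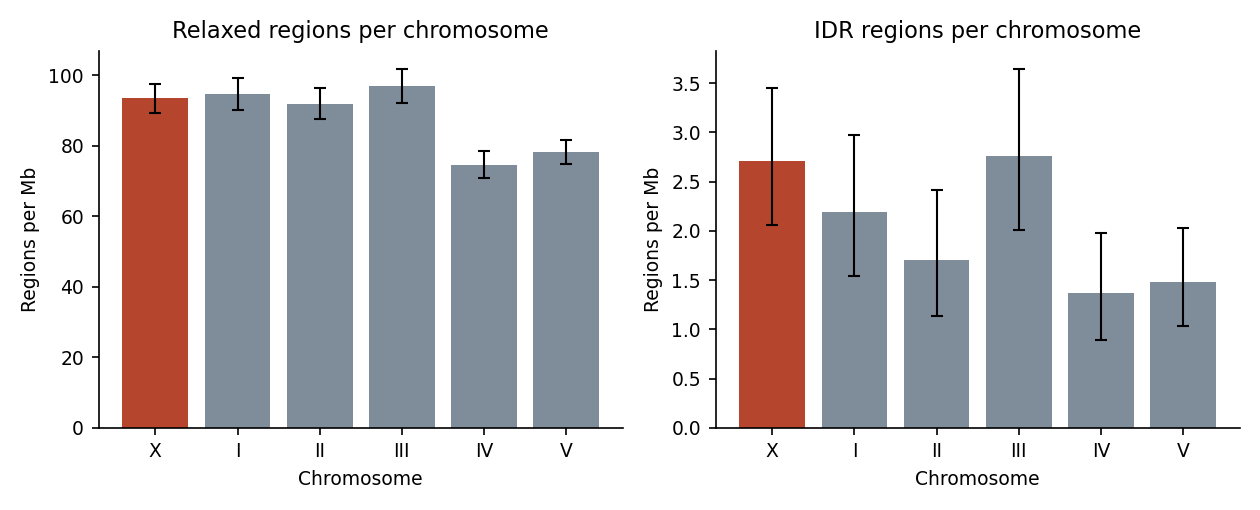
Regions per Mb on X (red) and on each autosome (grey) for the relaxed list (left) and the IDR list (right), both without regions near small RNA genes. Lines are 95% Clopper-Pearson intervals of each chromosome's share, scaled to regions per Mb. X stands at 93.4 per Mb among values from 74.6 to 96.9, and at 2.71 IDR regions per Mb next to 2.76 on III.

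IDR regions made up 2.90% of X members (48 of 1655, interval 2.15 to 3.83) and 2.14% of autosomal members (152 of 7107, interval 1.82 to 2.50), against 2.28% of all members. A further 4 X regions were weak neighbours (signal 18.4 to 26.2) that overlapped an IDR region by at least 1 bp. Counted by that overlap, 52 X members (3.14%, interval 2.36 to 4.10) and 171 autosomal members (2.41%, interval 2.06 to 2.79) were in the IDR list, against 2.55% of all members. The intervals of X and the autosomes overlapped under both rules, and by overlap the X share minus the autosomal share was 0.736 percentage points (interval −0.139 to 1.75). Of the 8 other settings tried, 4 gave an interval above 0 and 4 an interval that includes 0. Taking the 267 strongest regions of each replicate list as the strong ones, the difference was 0.545 points in replicate 1 (interval 0.0454 to 1.13) and 0.357 points in replicate 2 (interval 0.0860 to 0.674). It was 1.19 points with regions near small RNA genes kept (interval 0.212 to 2.31). In the ce10 lists, where such regions were also kept, it was 1.28 points (interval 0.300 to 2.39). The median signal was 21.98 on X against 21.65 on II to 22.02 on V. The upper quartile was 26.04 on X against 25.1 on II to 25.7 on V. The 95th percentile was 37.7 on X against 35.0 on II to 37.7 on III. The X median lay within the autosomal range, and the X upper quartile was above that of each autosome in the pooled list. In replicate 1 the upper quartile was 14.433 on X, below 14.499 on III and 14.437 on V, and in replicate 2 it was 10.265 on X against 10.264 on III, so the replicate lists did not both give that order. GC content within 100 bp of the summit was 48.8% ± 6.92 (SD over regions) for X IDR regions and 46.6% ± 6.77 for autosomal IDR regions.

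Support by the replicates was alike on X and the autosomes. Of the X members 73.6% overlapped a region of replicate 1 and 83.7% a region of replicate 2, against 73.4% (replicate 1) and 83.3% (replicate 2) of autosomal members. Regions found in both made up 58.0% of X members (960 regions, interval 55.6 to 60.4) and 57.4% of autosomal members (4081 regions, interval 56.3 to 58.6). Another 11 X members were in neither list. All 48 X IDR regions had a partner in each replicate list. Of these, 36 ranked among the 267 strongest regions of replicate 1, 36 among those of replicate 2, and 26 in both. Their median rank was 137 in replicate 1 and 110.5 in replicate 2, against 150 in replicate 1 and 155 in replicate 2 for the autosomal IDR regions.

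**Figure D3:**
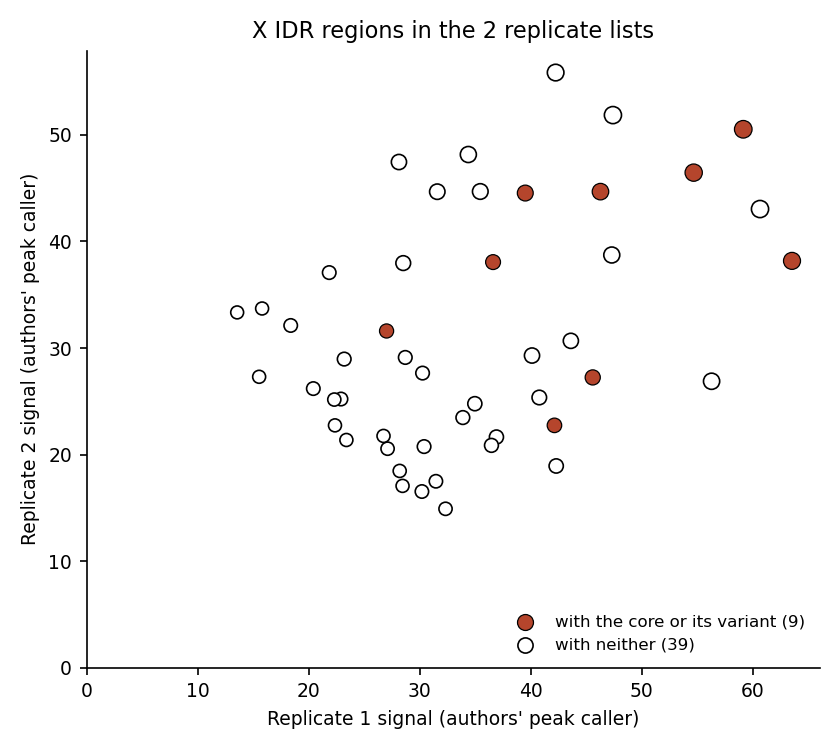
Signal of the 48 X IDR regions in the relaxed list of replicate 1 (horizontal axis) and of replicate 2 (vertical axis), both as scored by the authors' peak caller. Larger points have a higher pooled signal, and the 9 red points hold the core GCGCAGGG or its variant GCGAAGGG within 100 bp of the summit. The red points run from 27.01 to 63.5 in replicate 1 and from 22.7 to 50.5 in replicate 2. The variant was picked from these same regions, so the split by color is a description only.

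The 25 strongest X regions comprised 14 sites outside promoters and 11 in promoters. The strongest was intergenic and lay 6030 bp upstream of K02D3.1, with K02D3.2 the gene of the next nearest start (chrX:13700689-13701064). Its signal was 110.9 in the pooled list, 59.1 in replicate 1 and 50.5 in replicate 2, where it ranked 12 and 10. The second lay in an intron of mom-1, which encodes the Porcupine-type enzyme needed to secrete Wnt ligands (chrX:6296380-6296755). It had 105.8 in the pooled list, 54.7 in replicate 1 and 46.5 in replicate 2. These 2 were among the 20 strongest regions of each replicate.

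Promoter regions followed. The summit at ftt-2 (WBGene00001502), a 14-3-3 protein gene, lay 500 bp upstream of the transcription start site (TSS) and had 103.8 in the pooled list, 60.6 in replicate 1 and 43.04 in replicate 2. The summit at hsp-3, which encodes the BiP chaperone of the endoplasmic reticulum, lay 72 bp upstream of the TSS and had 102.96 in the pooled list, 47.4 in replicate 1 and 51.9 in replicate 2. The summit 231 bp upstream of C18B12.4 had 94.6 in the pooled list. None of these 3 promoters held the core. The summit 974 bp upstream of ain-1, a GW182-type partner of the microRNA machinery, had 86.5 in the pooled list, 34.4 in replicate 1 and 48.2 in replicate 2. A region 210 bp upstream of T13C5.6 and 666 bp inside the start of C14F11.7 had 85.6 in the pooled list. Lower promoter signals were at F46H5.2 (80.4, 528 bp upstream), serp-1.1 (77.2, 276 bp upstream) and mdl-1 (74.3, 137 bp upstream), which encodes a Mad-type basic helix-loop-helix protein. The summits at nspc-17 (73.7, 722 bp upstream), puf-9 (73.5, 286 bp upstream), a Pumilio-type RNA-binding protein gene, and clec-266 (61.1, 140 bp upstream), a C-type lectin gene, complete the promoters in this set. Of the 11 promoters among the 25 strongest, the nspc-17 promoter is the 1 that held the core.

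Distal regions with the core were W02H3.3 and W04G3.11 (101.4 in the pooled list, 63.5 in replicate 1 and 38.2 in replicate 2) and gtr-1 and F25E2.2 (93.8 in the pooled list, 46.3 in replicate 1 and 44.7 in replicate 2). The interval 1791 bp upstream of F20B6.9 had 84.2 in the pooled list, 39.5 in replicate 1 and 44.5 in replicate 2. A coding exon of pks-1, a polyketide synthase gene, had 70.02 in the pooled list and lay 15147 bp from the nearest TSS, that of C41A3.2. The interval near F22H10.2 had 65.2 and an intron of Y41G9A.17 had 60.01 in the pooled list. Distal regions with neither sequence were an intron of igcm-4 (88.7), the intervals near F55G7.5 (74.05) and T27A8.7 (65.4), and an intron of F09A5.3 (67.98). The interval upstream of unc-10 (59.4, 4469 bp), the Rim protein gene of synaptic vesicle release, and that upstream of tps-1 (59.1, 5678 bp), a trehalose-phosphate synthase gene, also held neither. The region in F09A5.3 lay 251 bp from mir-54, and the microRNA genes mir-55, mir-55b and mir-56 lay within 1000 bp of it too. It had 28.5 in replicate 1 and 37.97 in replicate 2. Of 74 microRNA genes on X, 10 had a member within 1000 bp, and these 4 were the only ones near an X IDR region. On the autosomes the genes with a member were 5 of 33 on I, 23 of 49 on II, 13 of 27 on III, 9 of 50 on IV and 7 of 28 on V, and 0 to 2 per autosome were near an IDR region.

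Among the X IDR regions the core was seen mostly away from promoters. Of the 24 X IDR regions outside promoters, 7 held it, and of the 24 in promoters, 1 did. Outside the IDR list the core also lay at promoter regions. These were at R04E5.9 (40.3, 22 bp upstream), ins-39 (29.5, 645 bp upstream) and apm-3 (22.9, 49 bp upstream). The 9 X IDR regions with either sequence had a median signal of 84.2, and the 39 with neither had 52.8. GCGAAGGG was picked from these same regions, so this split is a description only. The strongest X region was among the 9 through GCGAAGGG alone. All 9 were among the 23 strongest X regions. The sites are spread along the chromosome, from 4.55% of its length at gtr-1 to 94.1% at F22H10.2.

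The 23 weaker X IDR regions were named by their nearest gene, after their values were seen. In promoters they included unc-115 (51.03, 111 bp upstream), an actin-binding protein gene of axon guidance, and syd-2 (45.2, 488 bp upstream), the liprin-alpha gene of presynaptic assembly. Others were unc-84 (45.03, 659 bp upstream), a SUN-domain protein gene of nuclear migration, and spc-1 (45.4, 754 bp upstream), the alpha spectrin gene. The summit at nhr-48 (48.1), a nuclear receptor gene, lay 618 bp upstream, and that at bet-2 (50.4), a bromodomain protein gene, lay 280 bp upstream. A noncoding exon 3561 bp downstream of the sox-2 start had 56.1, and one 4352 bp upstream of dlg-1, the Discs large gene of epithelial junctions, had 52.3. Some replicates ranked these far down. The unc-84 region had 15.8 in replicate 1, where it ranked 2639, and 33.7 in replicate 2, where it ranked 58. The acl-4 region, the weakest of the 48, had 13.6 in replicate 1 (rank 5120) and 33.3 in replicate 2 (rank 61). Just outside the list, a region 921 bp inside aak-2, an AMP-activated kinase gene, had 43.96 in the pooled list.

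X regions lay farther from genes than autosomal regions, as do the bases of X. Each summit was given 1 class, in the order promoter (1000 bp upstream of a protein-coding TSS), 5′ UTR, 3′ UTR, coding exon, noncoding exon, intron and intergenic. Intergenic summits made up 22.2% of X members (368, interval 20.3 to 24.3) and 16.7% of autosomal members (1184, interval 15.8 to 17.5), and the highest autosome, IV, had 18.9%. Intergenic bases make up 29.3% of X and 19.9% of the autosomes. Set against its bases, the intergenic share was 0.759-fold on X and 0.835-fold on the autosomes. Promoter summits made up 25.7% of X members (426, interval 23.6 to 27.9) and 28.6% of autosomal members (2034, interval 27.6 to 29.7). Promoter bases make up 18.5% of X and 23.3% of the autosomes, so the share against bases was 1.39-fold on X and 1.23-fold on the autosomes, with 1.04-fold on V to 1.37-fold on III. X has 154.1 protein-coding genes per Mb, against 187.6 per Mb on IV to 238.7 per Mb on V. The lower promoter share and the higher intergenic share were also found in each replicate list. The promoter difference, X minus autosomes, was −2.88 percentage points (interval −5.23 to −0.462). It was −0.417 points with a promoter of 500 bp (interval −2.41 to 1.67) and −1.38 points in the upper 50% of the pooled list by signal (interval −4.83 to 2.20), and both of these intervals include 0. In the replicate lists the promoter shares were 23.9% on X and 28.05% on the autosomes in replicate 1, and 21.2% on X and 24.9% on the autosomes in replicate 2.

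**Figure D4:**
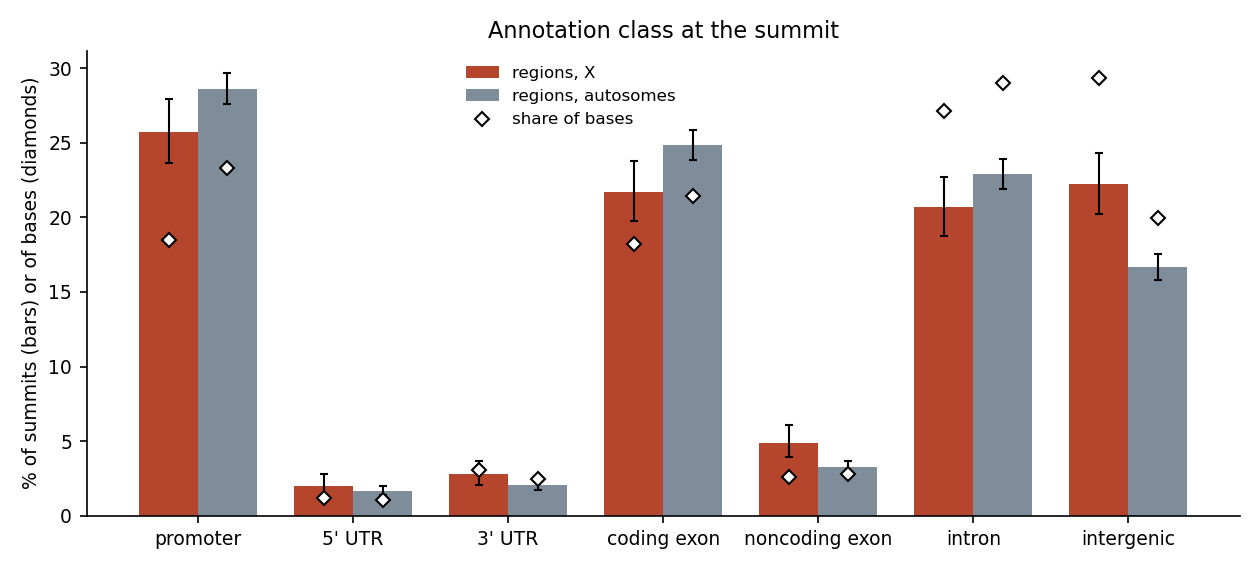
Annotation class at the summit for all relaxed regions on X (red) and on the 5 autosomes together (grey), as percent of summits with 95% Clopper-Pearson intervals. Diamonds show the percent of bases of the same chromosomes in each class. Intergenic summits stand at 22.2% on X and 16.7% on the autosomes, below the diamonds at 29.3% of bases on X and 19.9% on the autosomes, and promoter summits stand above theirs.

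Coding exons held 21.7% of X summits and 24.9% of autosomal summits, and introns held 20.7% of X summits and 22.9% of autosomal summits. Noncoding exons held 4.89% of X summits (81 summits, interval 3.91 to 6.05) and 3.24% of autosomal summits (230 summits, interval 2.84 to 3.67). The autosomes ran from 2.32% on III to 4.28% on V, and the interval of V (3.35 to 5.37) overlapped that of X. Set against bases, the share was 1.90-fold on X, with 0.900-fold on IV to 1.84-fold on I. The intron difference was not stable, since the replicate lists gave 24.3% on X and 24.3% on the autosomes (replicate 1) and 23.6% on X and 23.4% on the autosomes (replicate 2). Among IDR regions, 24 of 48 on X were in promoters (50%, interval 35.2 to 64.8) against 88 of 152 on the autosomes (57.9%, interval 49.6 to 65.8). A further 15 on X were intergenic (31.3%, interval 18.7 to 46.3) against 27 on the autosomes (17.8%, interval 12.04 to 24.8). The remaining X IDR regions were 5 in introns, 2 in coding exons and 2 in noncoding exons. These intervals overlapped.

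Distances to genes gave the same order. A summit lay within 1000 bp of a protein-coding TSS, on either side, for 40.4% of X members (669, interval 38.05 to 42.8) and 48.4% of autosomal members (3443, interval 47.3 to 49.6). The autosomes ran from 46.7% on III to 50.04% on IV. The median distance was 1391 bp on X and 1050 bp on the autosomes. Of the X members within 1000 bp, 397 lay upstream of the TSS and 272 downstream, against 1688 autosomal members upstream and 1755 downstream. For X IDR regions the median distance was 992.5 bp, against 479.5 bp for autosomal ones, and 23 of the 24 X IDR regions within 1000 bp lay upstream, as did 86 of 97 autosomal ones.

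Along X the regions were spread evenly except at the left end. Cut into 10 equal parts, the chromosome held, from left to right, 118, 174, 178, 177, 174, 175, 167, 159, 170 and 163 regions. The leftmost part was also the lowest in replicate 1 (194 regions against 277 to 330 in the others) and in replicate 2 (436 against 530 to 593). It holds 247 protein-coding genes, the second lowest number, between 199 in the rightmost part and 263 to 327 in the others. Cut into 3 equal parts, the middle one of X held 35.3% of its regions (interval 33.04 to 37.7), against 32.1% on V to 35.6% on IV. Of the 48 IDR regions 12 lay in the left part, 20 in the middle one and 16 in the right one. Of the 10 smaller parts, number 4 held 9 of them and number 3 held 1. Neighbouring X IDR summits lay a median of 214232 bp apart. A pair near unc-10 and lron-7 was 4948 bp apart, the closest on X. The summits at myrf-2 and nucb-1 were 8859 bp apart and those at syd-2 and bet-2 were 13266 bp apart.

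**Figure D5:**
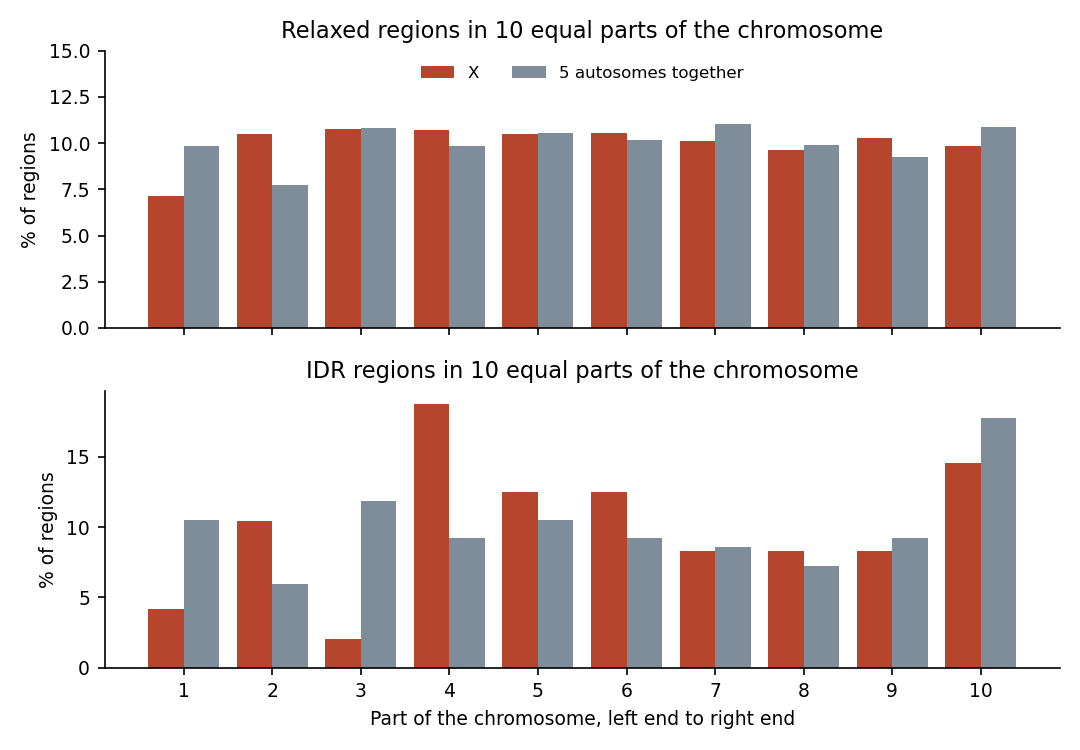
Percent of regions in each of 10 equal parts of the chromosome, left end to right end, for X (red) and the 5 autosomes together (grey), in the relaxed list (top) and the IDR list (bottom). The leftmost part of X holds 7.13% of its relaxed regions and each of the others holds 9.61 to 10.8%. Of the IDR regions on X, 18.8% lie in part 4.

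Of 2731 protein-coding genes on X, 599 (21.9%) had a member within 1000 bp of a TSS, and 26 had an IDR region there. On the autosomes 3574 of 17242 genes (20.7%) had one, and 132 had an IDR region. The gene lists that follow were read against that background, and their small sizes allow no statement on any list as such. Of the 6 X genes of dosage compensation and the X signal that counts X chromosomes, 4 had a member within 1000 bp, and 0 had an IDR region. These were sex-1, a nuclear receptor gene of the X signal (37.5 in the pooled list, 919 bp inside the gene), and ceh-39, a homeobox gene of the X signal (33.3, 158 bp upstream). The others were sdc-2, which triggers assembly of the dosage compensation complex on X (23.7, 474 bp upstream), and fox-1, an RNA-binding X signal gene (21.4, 391 bp upstream). The median over all X genes with a member was 22.6. The remaining genes, sdc-1 and xol-1, had none within that distance. On the autosomes 3 of 10 genes of the list had a member, and 0 had an IDR region.

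Among the X genes of mesoderm and muscle regulators, axon guidance, muscle structure and homeobox factors, 1 had an IDR region. Of 7 X genes of mesoderm and muscle regulators, 1 had a member (14.3%), against 5 of 17 on the autosomes (29.4%). It was hnd-1, a mesodermal basic helix-loop-helix gene (19.4, 108 bp upstream). That count depended on the distance, since 3 of the 7 had a member within 2000 bp. A region outside the IDR list, in an intron 1684 bp downstream of the mls-2 start, had 43.1 in the pooled list. It was picked after its value was seen. Of 14 X genes of axon guidance and cell migration, 6 had a member within 1000 bp (42.9%), against 23 of 41 on the autosomes (56.1%). They include unc-115, the sole IDR region of that list, sax-3, the Robo receptor gene (30.003, 834 bp upstream), lam-2, the laminin gamma gene (27.7, 637 bp upstream), and sdn-1, the syndecan gene (25.99, 77 bp upstream). Of 14 muscle structure genes, 5 had one (35.7%), against 14 of 37 on the autosomes (37.8%), and on X act-4, an actin gene (37.4), and unc-97, a PINCH-type adhesion gene (35.8), had the highest signal. Of 27 homeobox genes on X, 9 had a member (33.3%), against 14 of 68 on the autosomes (20.6%). After ceh-39 the highest were ceh-40 (26.4), vab-3, the Pax6 gene (25.1), and vab-15, an Msh-type gene (24.2).

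Nuclear receptor genes had a member at 10 of 27 X genes (37.0%) and at 42 of 247 autosomal genes (17.004%). The highest were nhr-48 (48.1), sex-1, nhr-32 (34.8) and nhr-71 (28.5). Of 30 cuticle collagen genes 11 had one (36.7%), against 39 of 139 on the autosomes (28.1%), and on X col-175 (37.3) and dpy-7 (33.4) had the highest signal. Of 36 neuropeptide and insulin genes 7 had one (19.4%), against 11 of 108 on the autosomes (10.2%). The X genes include ins-39 (29.5) and flp-18 (23.6). Of 5 synapse genes 3 had one, against 5 of 17 on the autosomes. The X genes were syd-2, unc-10 (30.8) and sng-1 (19.9), the synaptogyrin gene. Of 42 ligand-gated and potassium channel genes 7 had one (16.7%), against 20 of 101 on the autosomes (19.8%), and on X kqt-1, a KCNQ-type channel gene (30.9), and lgc-47 (24.4) had the highest signal. All 4 histone genes on X had a member, against 20 of 68 on the autosomes (29.4%). They were his-24 (34.3), his-71 (26.6), and his-38 with his-40, which share 1 region (18.5). Of 2 ribosomal protein genes 1 had one (rpl-25.1, 21.5), against 46 of 74 on the autosomes (62.2%). The 1 chaperone gene of the list on X was hsp-3, against 13 of 25 with a member on the autosomes. Of the intestinal genes 0 of 9 on X and 0 of 11 on the autosomes had one.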

How the data were processed

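ChIP-seq peak lists of 2 biological replicates of 1 group were used, on build ce11, with the ce10 lists as an alternative. The ce10 lists were used without the exclusion near small RNA genes. Per the text notes deposited with the samples, the authors called relaxed regions per replicate and on the pooled replicates against a control, and took the IDR list from these. No aligner, peak caller, version or read depth is given in the sources used here. Signal values, as deposited, are the peak scores that the authors' caller gave each region, in units set by that caller. The deposited −log10 q-value column was used in an alternative only. No sample columns went unused.

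Summits were assigned with Ensembl release 115 on WBcel235, and sequence came from the RefSeq copy of that assembly. No coordinates were converted, and all are 1-based. Regions overlapped if they shared at least 1 bp. Shares carry 95% Clopper-Pearson intervals. Repeated sequence may be affected by how multiply mapped reads were handled, which is not stated. Genes named were those within 1000 bp of the 25 strongest X IDR regions, otherwise the gene a region lies in or nearest to, and up to 4 genes per list. Further genes were picked with their values in view. The members, lists and motifs were chosen with earlier results of these data known. Analyses were run in Python 3.11.15 with numpy 2.4.6, pandas 2.3.3 and scipy 1.17.1, and were tested on planted regions, motifs and overlaps.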

Additional observations from a re-analysis of the deposited data

How the results depend on the processing

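Among 70 alternative values of the main results 56 stayed within the interval of the value reported, or within the spread between replicate lists for the median, and 14 did not. None that excluded 0 changed sign. The ratio of the median signals, X over autosomes, was 1.01. It was 1.01 with no exclusion, 1.01 on ce10 (also with no exclusion) and 1.07 by the −log10 q column. The replicate lists alone gave 1.009 to 1.010. The promoter share, X minus autosomes, was −2.88 percentage points. It was −0.417 with a promoter of 500 bp, −6.43 with 2000 bp and −7.89 among IDR regions. The intron difference of −2.24 lay between −0.0307 and 0.137 in the single replicate lists. The intergenic difference of 5.58 was 13.5 among IDR regions. The centre share of X was 41.7% among IDR regions. It was 21.1% for the middle of 5 equal parts, which is a smaller stretch than the middle of 3, so a lower share follows from its size. The core GCGCAGGG, X minus autosomal IDR regions, differed by 16.7 points, by 30.8 among the 133 strongest IDR regions before the exclusion, and by 0.989 over all members. With all regions near small RNA genes kept, the X share of IDR regions was 25.8%, and 11.6% of X IDR regions held the core. With the exclusion, 10.4% of X IDR regions held it within 50 bp of the summit. For gene lists and motifs, 14 of 36 other values moved. Apart from the size of the middle part, the cause of these changes was not tested. Alternatives on the core, on intergenic summits and on regions without it were chosen after seeing the data. No read counts were given, so depth sets a limit that cannot be stated. After the exclusion the IDR list had 48 X regions, so differences among classes within them were not detectable at that number unless large.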
